A study of Arabidopsis thaliana with 44 samples.

Results

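Transcripts of 50 cell cycle genes were followed in RNA-seq libraries of Arabidopsis thaliana. The set is a list of loci grouped by function, with no threshold on their levels, and it covers 5 A-type, 9 B-type and 9 D-type cyclins, 5 cyclin-dependent kinases (CDKs), 5 genes of mitosis and cytokinesis, 9 CDK inhibitors and 8 genes of DNA replication. All 50 were found among the 34262 genes of the files. The set and the other gene lists were chosen with earlier results of these data known. Shares of called genes set beside those of all genes are thus no test of the set. The plants were 7 days old, and the study asked how the tyrosine-sulfated peptide PSY5 and its receptors shape the transcriptome. tpst-1 is mutant in TPST, the enzyme that sulfates PSY and other signal peptides, psyr1,2,3 is mutant in 3 PSY receptor genes, and tpst/psyr1,2,3 combines both.

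Roots were labelled tpst/psyr1,2,3, tpst-1 treated with 1 uM PSY5, or tpst-1 (n = 3 each). Root libraries of wild type were not analysed here, so all root groups shared the tpst-1 allele. Shoots were labelled tpst/psyr1,2,3, tpst-1 treated with 1 uM PSY5, psyr1,2,3, tpst-1, or wild type (n = 4 each). tpst-1 seedlings were labelled 0 h, with no treatment given, and 2 h, 6 h, 24 h and 7 d with 1 uM PSY5 (n = 3 each). The labels do not say how long roots and shoots were treated. Each mutant is represented by 1 allele combination. The labels do not say how many plants went into a library or whether replicates were separate cultures. P-values thus measure only the spread between these libraries, which may be technical. Root replicates lay closest together, with a coefficient of variation beyond counting noise of 0.0588 over all genes (edgeR). The fits of seedlings and shoots gave 0.107 and 0.186. Small p-values of roots rest on that narrow spread. A joint fit of roots and shoots, at 0.167, pools unequal spreads, so its p-values carry the same limit.

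In the plant cell cycle D-type cyclins bind CDKs and start the phosphorylation of the retinoblastoma protein, which frees E2F factors to switch on genes of DNA replication. The helicase subunits MCM2 to MCM7 and the sliding clamp PCNA are such genes. A-type cyclins act from replication to mitosis, and B-type cyclins, with the plant-specific B-type CDKs, drive entry into mitosis. MYB3R factors switch on many mitotic genes through the M-specific activator (MSA) element. Inhibitors of the KRP and SIAMESE families block CDKs, and SIAMESE proteins take cells out of division into endoreduplication, in which DNA is copied without mitosis. In roots these genes are active in the tip, and in shoots in the apical meristem and young leaves.

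The libraries held 3.21 to 4.13 M reads in roots, 8.61 to 16.8 M in shoots and 9.88 to 15.4 M in seedlings (M, 1e+06 reads). Levels are given as scaled TPM, which is the deposited TPM (transcripts per 1e+06) times 1 number per library that carries the trimmed-mean scaling of the test. That number was 0.975 to 1.04 in roots, 0.940 to 1.05 in seedlings and 0.879 to 1.06 in 19 shoot libraries, but 1.69 in tpst-1 shoot replicate 1, which stands apart. On the deposited scale the median gene was 0.33 log2 units higher in tpst/psyr1,2,3 than in tpst-1 shoots, against -0.01 after scaling, so changes in shoots are reported relative to that shift. TPST transcript was present in libraries labelled tpst-1, at 6.98 to 8.50 scaled TPM in tpst-1 shoots and 8.24 to 9.37 in wild-type shoots, and a total per gene leaves unseen what portion of its RNA was present, so groups carry the names of their labels. The sources used here do not pair the receptor genes with locus IDs, and 3 receptor-like kinase loci were read as candidates (deposited TPM, mean ± SD). AT5G63930 was at 60.5 ± 3.49 in roots labelled tpst/psyr1,2,3, against 19.03 ± 0.906 in those labelled tpst-1 (1.59 ± 0.08 on the log2 scale, adjusted p = 3.11e-12 by edgeR, n = 3 each). In shoots it was at 8.69 ± 3.76 in tpst/psyr1,2,3, 5.73 ± 0.502 in psyr1,2,3 and 3.97 ± 0.410 in wild type (n = 4 each), and neither mutant passed against wild type. AT1G17230 was lower in both mutants, at 1.37 ± 0.151 in tpst/psyr1,2,3, 1.15 ± 0.461 in psyr1,2,3 and 5.26 ± 0.560 in wild-type shoots. AT2G33170 was also lower, at 4.99 ± 0.366 in tpst/psyr1,2,3, 4.47 ± 0.973 in psyr1,2,3 and 7.94 ± 0.884 in wild-type shoots. In roots AT2G33170 was at 2.37 ± 0.514 in tpst/psyr1,2,3 and 6.27 ± 0.562 in tpst-1 (log2 fold change -1.44 ± 0.17, adjusted p = 1.14e-06, edgeR). AT1G17230 was at 0.402 ± 0.0861 and 1.04 ± 0.192 in these roots. Against tpst-1 shoots AT5G63930 was higher in tpst/psyr1,2,3 (log2 fold change 1.27 ± 0.26, adjusted p = 0.00236, edgeR). Transcript of each locus was thus present in mutant libraries, and that of 1 locus was higher in mutant roots. Of the 50 genes 49 passed the filter of 1 TPM in at least 3 libraries (4 in shoots). The one that did not, CYCD7;1, a D-type cyclin of the stomatal lineage, had no reads in any root library and reached at most 1.44 TPM in a psyr1,2,3 shoot.

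The promoters of the replication genes and of the B-type cyclins are shown first, because E2F factors and MYB3R factors are known to act on these classes. The 250 bases before each gene start were read from the RefSeq genome and annotation of assembly TAIR10.1. An E2F site, TTTCCCGC or TTTGGCGC on either strand, was present in 5 of the 8 replication genes (MCM2 to MCM6), against 0.958% of 27443 promoters of protein-coding genes. The MSA core AACGG was present in 6 of the 9 B-type cyclins and 1 of the 8 replication genes, against 20.6% of all promoters, and the longer form CNAACGG in 6 of 9 and 0 of 8, against 4.5%. Site II elements, TGGGCC or TGGGCT, were in 6 of the 8 replication promoters, against 19.2% of all. Capitals mark E2F sites and MSA cores, read on either strand, and each line runs 5′ to 3′ toward the gene start.
MCM2 (chr1:16969964-16970213, plus strand): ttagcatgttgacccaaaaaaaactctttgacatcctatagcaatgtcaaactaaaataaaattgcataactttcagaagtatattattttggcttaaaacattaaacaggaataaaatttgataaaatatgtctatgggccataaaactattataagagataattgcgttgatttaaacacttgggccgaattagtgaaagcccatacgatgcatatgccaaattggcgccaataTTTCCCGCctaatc
MCM4 (chr2:7130730-7130979, minus strand): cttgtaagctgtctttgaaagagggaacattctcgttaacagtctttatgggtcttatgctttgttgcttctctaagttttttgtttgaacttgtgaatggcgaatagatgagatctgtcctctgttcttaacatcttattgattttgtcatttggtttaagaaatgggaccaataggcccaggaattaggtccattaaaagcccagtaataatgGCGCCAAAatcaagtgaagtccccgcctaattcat
MCM5 (chr2:3527501-3527750, minus strand): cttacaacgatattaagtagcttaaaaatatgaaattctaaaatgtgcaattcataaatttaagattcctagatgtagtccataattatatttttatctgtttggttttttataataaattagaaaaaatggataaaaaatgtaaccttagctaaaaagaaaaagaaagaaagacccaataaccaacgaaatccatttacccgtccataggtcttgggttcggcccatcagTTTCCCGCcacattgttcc
MCM6 (chr5:18010668-18010917, minus strand): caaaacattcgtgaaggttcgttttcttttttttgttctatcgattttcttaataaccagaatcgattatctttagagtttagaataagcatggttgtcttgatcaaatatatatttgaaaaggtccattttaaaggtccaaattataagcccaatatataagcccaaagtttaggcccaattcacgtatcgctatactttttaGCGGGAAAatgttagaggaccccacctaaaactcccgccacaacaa
CYCB1;2 (chr5:1861704-1861953, minus strand): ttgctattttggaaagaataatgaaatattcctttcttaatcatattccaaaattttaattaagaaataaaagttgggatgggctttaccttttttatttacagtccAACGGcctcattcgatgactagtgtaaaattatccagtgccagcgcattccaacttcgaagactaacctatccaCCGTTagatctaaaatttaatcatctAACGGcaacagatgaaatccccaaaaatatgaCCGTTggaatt
In these 4 replication promoters the E2F site began 14 to 46 bases before the gene start. That of MCM3, whose promoter is not printed, began 170 bases before it. The B-type cyclin held 4 MSA cores. Of the D-type cyclins and inhibitors CYCD3;1, KRP1, KRP2, KRP3 and KRP7 held an MSA core and CYCD3;3 an E2F site, and the window of CYCD3;1 overlaps a neighbouring gene. Neither motif occurred in the windows of SIM, SMR1, CYCD6;1 and CYCD1;1, which says only that these letters are not in those 250 bases. Of the B-type cyclins CYCB1;4, CYCB2;4 and CYCB3;1 held no MSA core.

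Most B-type cyclins and CDKs were more abundant in tpst-1 roots than in tpst-1 shoots, while other classes were mixed. In the joint test of roots and shoots 31 of 49 genes passed (63.3%, against 66.6% of all genes), 24 higher in roots (31.6% of all genes) and 7 lower (35%), so the total share was near the background. The higher ones were 8 of 9 B-type cyclins, 4 of 5 CDKs, 5 of 8 replication genes, 2 of 5 genes of mitosis and cytokinesis, 1 of 5 A-type cyclins, 2 of 8 D-type cyclins and 2 of 9 inhibitors. CDKB1;1 (AT3G54180), a kinase of the transition into mitosis, averaged 34.5 ± 2.93 TPM in roots and 5.44 ± 1.22 TPM in shoots as deposited (SD, n = 3 and 4; log2 fold change 1.80 ± 0.18, adjusted p = 8.19e-10, edgeR). Lower in roots were KRP1, KRP4, KRP7 and SMR1 among the inhibitors and CYCD1;1, CYCD3;2 and CYCD5;1 among the cyclins. CYCD3;2 averaged 28.9 ± 1.64 TPM in roots and 54.8 ± 13.1 TPM in shoots (log2 fold change -1.76 ± 0.13, adjusted p = 1.13e-12, edgeR). Between tissues the scales differed by a median of 0.71 log2 units, and limma on log2(TPM + 1) called 39 genes higher and 4 lower, with the sign of KRP7 and CYCD5;1 turned round. CDKA;1, the kinase that acts through the whole cycle, averaged 56.8 ± 3.64 TPM in roots and 27.2 ± 8.76 TPM in shoots and did not pass (log2 fold change 0.22 ± 0.12, adjusted p = 0.0977).

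In roots the D-type cyclins showed the largest changes with PSY5. CYCD3;1, CYCD6;1 and CYCD3;3 were lower in PSY5-treated than in untreated tpst-1 roots, and CYCD1;1 was higher. CYCD3;1 (AT4G34160), which couples cytokinin and sugar to entry into the cycle, had 23.9, 17.7 and 23.4 scaled TPM in PSY5-treated roots, against 43.3, 49.9 and 44.6 in untreated tpst-1 roots. All 3 treated libraries lay below all 3 untreated ones. The fall passed the test (log2 fold change -1.08 ± 0.11, adjusted p = 2.31e-07, edgeR quasi-likelihood test, adjusted over all 19958 genes tested). CYCD6;1 (AT4G03270), which drives the formative division that separates cortex from endodermis, had 3.53, 2.73 and 1.81 scaled TPM in treated roots, against 7.43, 9.86 and 8.33 in untreated roots, again with no overlap (log2 fold change -1.61 ± 0.30, adjusted p = 0.00045). CYCD1;1 (AT1G70210), another D-type cyclin, moved the other way, with 10.9, 9.88 and 10.9 scaled TPM in treated roots, against 7.13, 4.44 and 4.85 in untreated roots (log2 fold change 0.95 ± 0.18, adjusted p = 0.000543). CYCD3;3, a relative of CYCD3;1, was lower by a smaller step (28.9 ± 0.417 scaled TPM with PSY5, 40.6 ± 1.08 without, SD, log2 fold change -0.48 ± 0.12, adjusted p = 0.00774). Of the other D-type cyclins CYCD4;1 had the largest difference, which did not pass (log2 fold change -0.39 ± 0.23, adjusted p = 0.302).

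Among the 9 CDK inhibitors only SIM (AT5G04470), which turns dividing cells to endoreduplication in trichomes, passed in this comparison. It had 78.8, 74.6 and 98.6 scaled TPM in PSY5-treated roots, against 50.2, 59.8 and 47.3 in untreated roots. The treated libraries all lay above the untreated ones (log2 fold change 0.70 ± 0.14, adjusted p = 0.000735). Its relative SMR1 was at 31.2 to 36.6 scaled TPM with PSY5 and 25.1 to 41.2 without, and the groups overlapped. KRP1 had the largest difference of the uncalled inhibitors (log2 fold change -0.45 ± 0.38, adjusted p = 0.516).

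**Figure D1:**
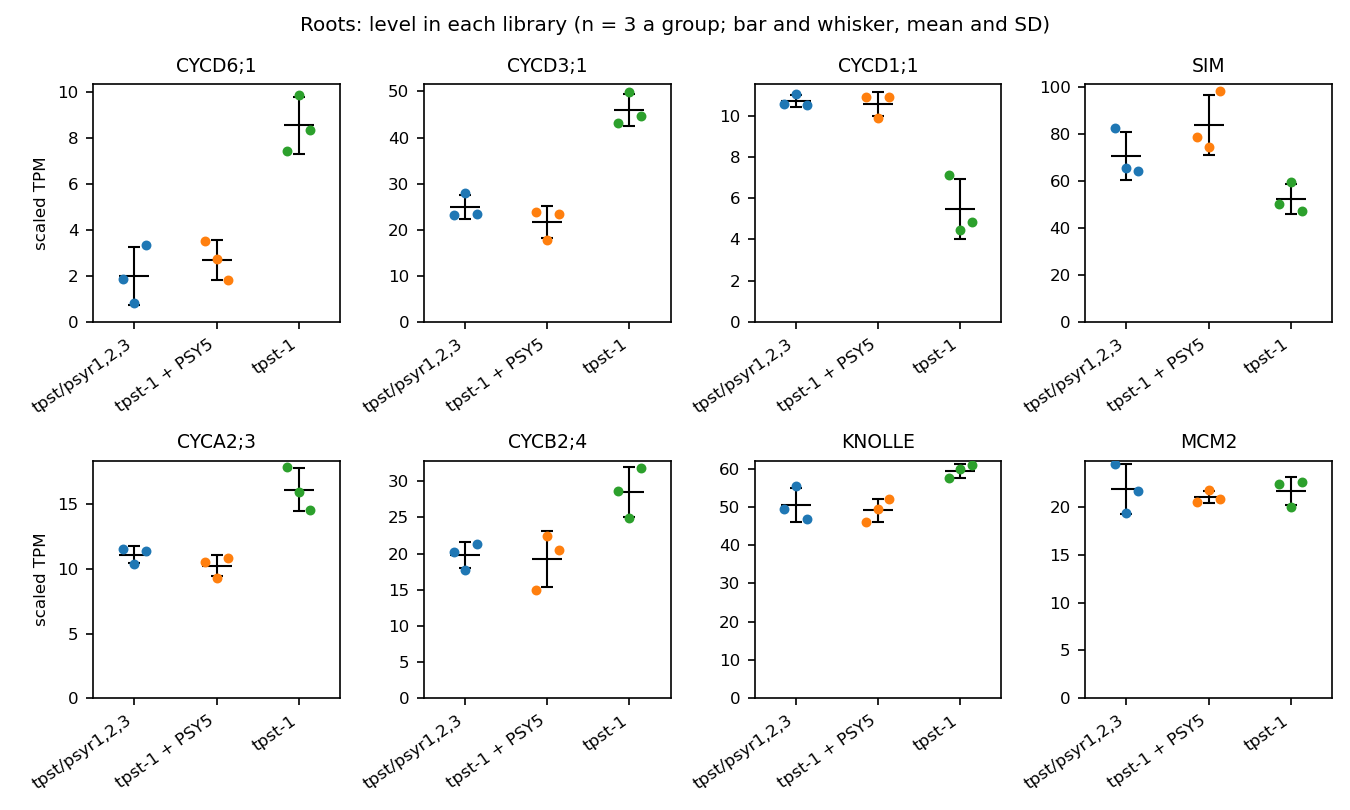
Scaled TPM (vertical axes) of 8 genes in each root library, for tpst/psyr1,2,3, PSY5-treated tpst-1 and tpst-1 roots, with the mean and SD of 3 libraries. CYCD6;1, CYCD3;1, CYCA2;3 and CYCB2;4 are lower, and CYCD1;1 and SIM higher, in both left groups than in tpst-1, while MCM2 lies within 19.3 to 24.5 in all 9 libraries.

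Some A-type and mitotic genes were lower in the same roots. In all, 13 of 49 genes passed (26.5%, against 15.2% of all genes), 2 of them higher (7.52% of all genes) and 11 lower (7.69%). Of 49, 38 had a negative fold change, and the median was -0.18, against 0.00 over all genes. From the A-type class CYCA2;3 (AT1G15570), which restrains endoreduplication together with CDKB1;1, had 10.5, 9.32 and 10.9 scaled TPM in treated roots, against 17.9, 15.9 and 14.6 in untreated roots (log2 fold change -0.66 ± 0.13, adjusted p = 0.00074). CYCA2;4 (log2 fold change -0.55) and the mitotic cyclin CYCA1;1 (-0.49) also fell, as did 1 of 9 B-type cyclins, CYCB2;4 (log2 fold change -0.55 ± 0.13, adjusted p = 0.00403). No sample of these 4 groups of values crossed between treated and untreated roots. Of the CDKs 1 of 5, CDKB1;2, fell (log2 fold change -0.47 ± 0.16, adjusted p = 0.0459). Of the genes of mitosis and cytokinesis 3 of 5 fell. KNOLLE (AT1G08560), the syntaxin of the cell plate, had 46.00, 49.5 and 52.01 scaled TPM in treated roots, against 57.5, 59.8 and 60.99 in untreated roots (log2 fold change -0.27 ± 0.09, adjusted p = 0.0446). CDC20.1, an activator of the anaphase-promoting complex, and the Aurora kinase gene AUR2 had log2 fold changes of -0.34 and -0.59.

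Several of these falls lay close to the threshold. The call of KNOLLE held in only 3 of 9 fits without 1 library. It was also lost with no filter on low values, with transcript lengths as offsets and with the compared groups alone. DESeq2 called 7 of the 13, and KNOLLE, CDKB1;2, CDC20.1, AUR2, CYCA2;4 and CYCA1;1 were the ones it did not call, whereas CYCD3;1, CYCD6;1, CYCD1;1, SIM, CYCA2;3, CYCB2;4 and CYCD3;3 passed under every alternative and with any 1 library left out. CDC20.1 and CDC20.2 share 97.5% of 1344 aligned coding bases, so reads may be split between them and their single values are uncertain.

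No replication gene passed in these roots. Of 8 genes 0 passed (edgeR, 2 of 8 at an unadjusted p under 0.05), although all 8 were slightly negative, with a median log2 fold change of -0.17. MCM2 (AT1G44900), a subunit of the replicative helicase, had 20.5, 21.7 and 20.8 scaled TPM in treated roots, against 22.4, 20.01 and 22.6 in untreated roots, and the groups overlapped (log2 fold change -0.05 ± 0.10, adjusted p = 0.816). MCM4 had the largest difference (log2 fold change -0.24 ± 0.11, adjusted p = 0.17).

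Other cell cycle genes of roots were read from a list of 58, of which 57 were tested. There, 7 fell and 0 rose with PSY5, and the median log2 fold change was -0.16, against 0.00 over all genes. Of all genes tested in these roots 15.2% passed, 7.69% lower and 7.52% higher. MYB3R4, an activator of mitotic genes, averaged 9.61 scaled TPM in treated and 16.4 in untreated roots (log2 fold change -0.75 ± 0.13, adjusted p = 0.000189). HINKEL, a kinesin of the phragmoplast, averaged 14.5 and 20.16 (log2 fold change -0.48 ± 0.10, adjusted p = 0.00142), and PLEIADE, a microtubule-bundling protein of the same structure, 11.02 and 15.8 (log2 fold change -0.52 ± 0.12, adjusted p = 0.00524). The locus AT1G63100 fell as well (log2 fold change -0.44 ± 0.11, adjusted p = 0.00627).

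**Figure D2:**
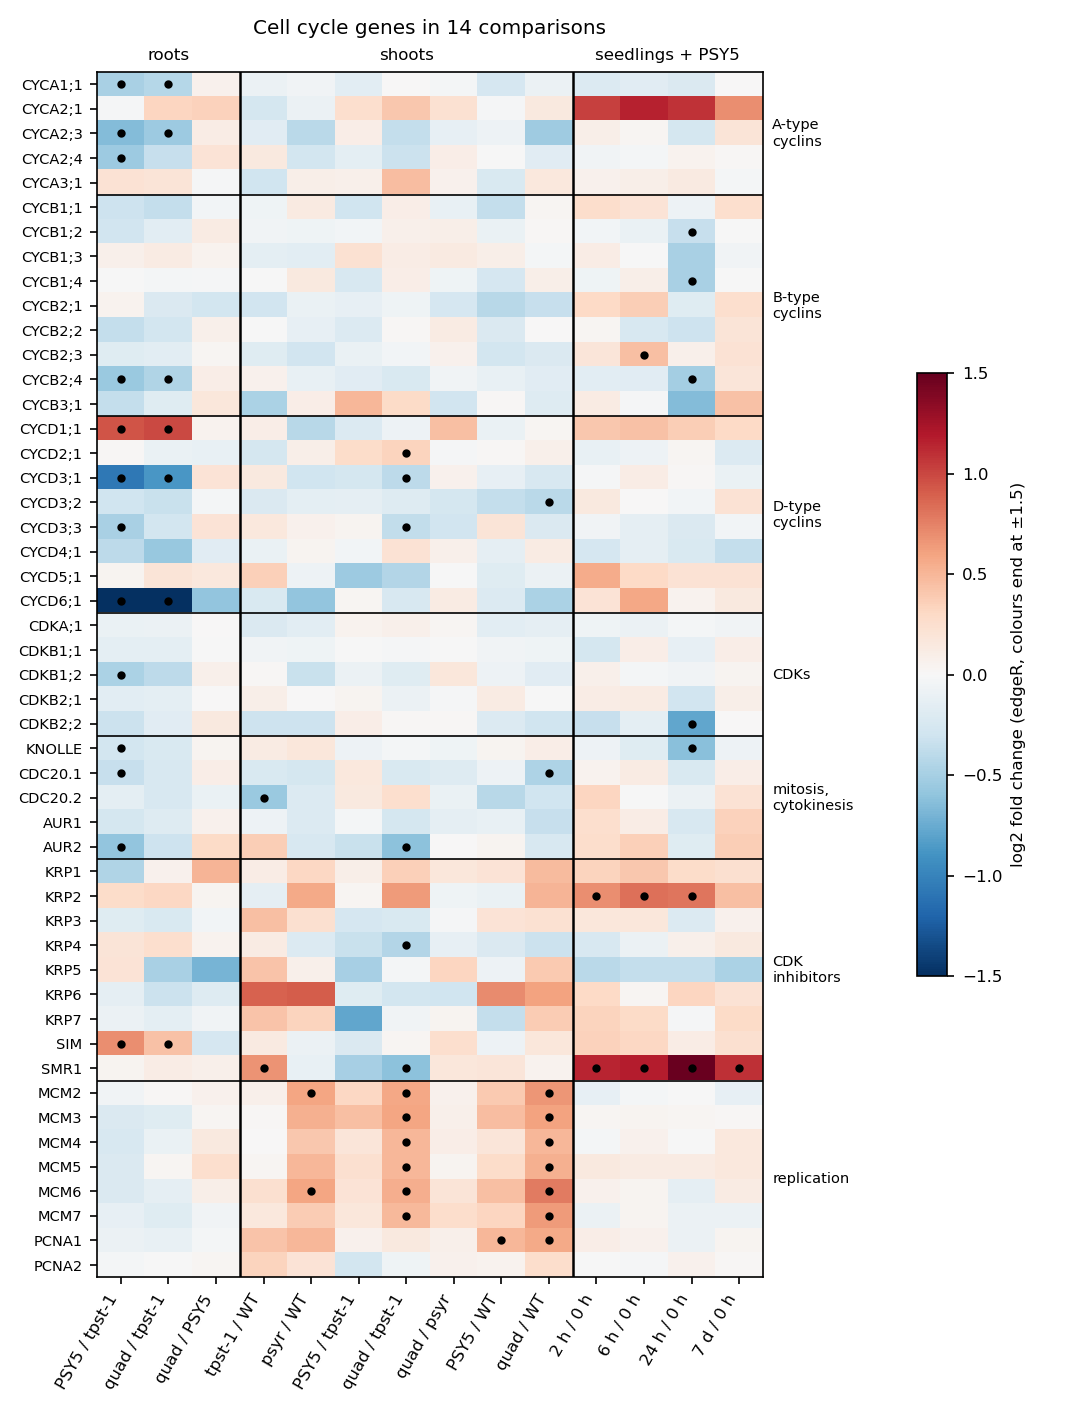
Log2 fold changes of the 49 tested genes (rows, by class) in 14 comparisons (columns, first group over second; quad is tpst/psyr1,2,3 and psyr is psyr1,2,3), as colour that ends at ±1.5, with a dot where the adjusted p is under 0.05. Root dots fall mostly on D-type, A-type and mitotic genes and on SIM, shoot dots mostly on MCM genes, and seedling dots mostly on KRP2, SMR1 and, at 24 h, on mitotic genes.

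Markers of cell types in the roots were read beside these results. The summed level of 9 root meristem and stem cell niche genes was 108 to 113 scaled TPM in PSY5-treated roots and 98.9 to 114 in tpst-1 roots, with none of the 9 at 0. The 8 root epidermis and endodermis markers summed to 264 to 277 and 159 to 182, and the 4 lateral root markers to 19.5 to 26.2 and 18.6 to 19.95. The 9 clock genes summed to 242 to 257 and 184 to 214. Leaf photosynthesis genes, 8 in number, summed to 31.1 to 43.7 and 51.7 to 75.4 scaled TPM in roots, against at least 36737 in shoots, and of 7 stomatal lineage genes SPCH, MUTE, FAMA, BASL and EPF2 were at 0 in all root groups. The part of the epidermis, endodermis and clock genes in the falls was not tested. In these bulk samples fewer dividing cells and less transcript per cell cannot be told apart.

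Loss of the receptors was compared with the same untreated roots. In tpst/psyr1,2,3 roots 7 of 49 genes passed against tpst-1 roots (14.3%, against 15.4% of all genes), 2 higher (7.9% of all genes) and 5 lower (7.5%), a share near the background. The tpst-1 libraries are also the controls of the PSY5 comparison, so the values are only set side by side. CYCD6;1 had 1.87, 0.815 and 3.33 scaled TPM in tpst/psyr1,2,3 roots, below every tpst-1 root library listed above (log2 fold change -2.20 ± 0.33, adjusted p = 4.71e-05). CYCD3;1 had 23.3, 27.9 and 23.5 (log2 fold change -0.88 ± 0.11, adjusted p = 4.18e-06). CYCD1;1 was higher at 10.6, 11.1 and 10.5 (log2 fold change 0.99 ± 0.18, adjusted p = 0.000384), and SIM at 82.7, 65.7 and 64.3 (log2 fold change 0.44 ± 0.14, adjusted p = 0.0368). None of these 4 overlapped the tpst-1 values. The call of SIM was lost by DESeq2 (adjusted p = 0.14), by limma (0.46, adjusted p = 0.0565) and without tpst-1 root replicate 1 or 3 or tpst/psyr1,2,3 root replicate 1. CYCA2;3, CYCA1;1 and CYCB2;4 were lower too, with log2 fold changes of -0.55, -0.42 and -0.45. The count was 4 without tpst-1 root replicate 3 or tpst/psyr1,2,3 root replicate 1, and 3 by DESeq2.

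Of the 57 other cell cycle genes 6 were lower and 0 higher in tpst/psyr1,2,3 roots, with a median log2 fold change of -0.12. The shares over all genes were 7.5% lower and 7.9% higher, 15.4% in total. The locus AT1G63100 (log2 fold change -0.49 ± 0.11, adjusted p = 0.00313) and CCS52B, an activator of the anaphase-promoting complex (log2 fold change -0.48 ± 0.11, adjusted p = 0.00423), had the smallest adjusted p. Epidermis and endodermis markers summed to 288 to 308 scaled TPM in these roots, clock genes to 220 to 254, root meristem genes to 99.5 to 116, lateral root markers to 13.95 to 22.6 and leaf photosynthesis genes to 58.7 to 149.

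Compared directly, tpst/psyr1,2,3 and PSY5-treated tpst-1 roots showed no gene of the set past the threshold. Of 49 genes 0 passed by edgeR, DESeq2 or limma (0.536% of all genes passed by edgeR, 0.316% higher and 0.22% lower), and 2 had an unadjusted p under 0.05. For CYCD3;1 the difference was 0.20 ± 0.12 log2 units (SE), for CYCD6;1 -0.59 ± 0.41, for CYCD1;1 0.05 ± 0.16 and for SIM -0.26 ± 0.13. Missing the threshold does not show that the groups were alike.

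In shoots the replication genes stood out. All 6 MCM genes and PCNA1 were higher in tpst/psyr1,2,3 than in wild-type shoots, while cyclins and CDKs showed few calls. In this comparison 9 of 49 genes passed (18.4%, against 7.04% of all genes), 7 higher (3.6% of all genes) and 2 lower (3.45%). The 8 replication genes had a median log2 fold change of 0.59, against 0.00 over all genes. MCM6 had 10.5, 9.22, 9.69 and 9.77 scaled TPM in tpst/psyr1,2,3 shoots, against 5.43, 6.19, 5.78 and 5.31 in wild-type shoots. Every mutant library lay above every wild-type library (log2 fold change 0.78 ± 0.14, adjusted p = 0.00121). MCM7 had 20.7, 18.7, 19.5 and 19.5 scaled TPM in the mutant, against 12.3, 13.7, 11.6 and 12.7 in wild type (log2 fold change 0.64 ± 0.12, adjusted p = 0.00142). MCM2 had 12.97, 11.48, 12.98 and 12.7, against 7.09, 8.04, 8.36 and 8.41 (log2 fold change 0.66 ± 0.15, adjusted p = 0.00937). For these 3 genes, as for MCM3, MCM4 and MCM5 (log2 fold changes 0.61, 0.50 and 0.53), the groups did not overlap. With each shoot library left out in turn MCM5 lost its call in 5 of 20 fits, MCM4 in 4 and MCM3 in 2. PCNA1 (AT1G07370), the clamp that holds polymerases on DNA, had 22.3, 19.5, 25.4 and 21.3 scaled TPM in the mutant, against 15.1, 13.6, 13.3 and 17.5 in wild type (log2 fold change 0.57 ± 0.14, adjusted p = 0.0128). Its copy PCNA2, 85.6% identical over 792 coding bases, was at 26.1 to 32.3 and 20.5 to 26.2 and did not pass (log2 fold change 0.26 ± 0.15, adjusted p = 0.348). The E2F sites near the start of MCM2, MCM4, MCM5 and MCM6 stand in capitals in the promoters above, and that of MCM3 lies further from its start. None was found in the windows of MCM7, PCNA1 and PCNA2, each of which overlaps a neighbouring gene.

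**Figure D3:**
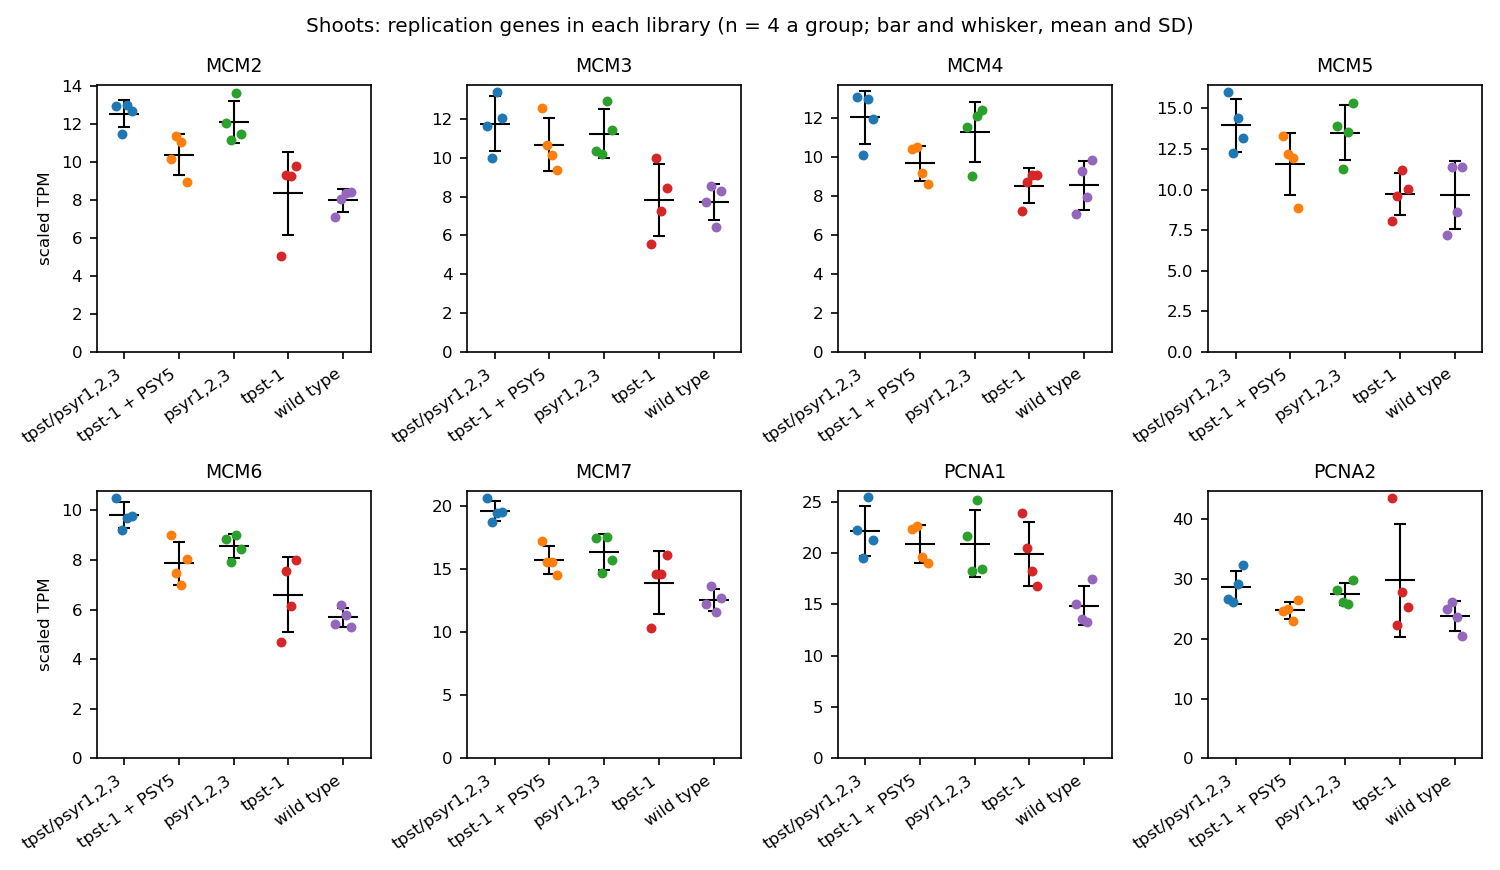
Scaled TPM (vertical axes) of the 8 replication genes in each shoot library of 5 groups, with the mean and SD of 4 libraries. For the MCM genes the tpst/psyr1,2,3 libraries lie above the wild-type ones, and tpst-1 replicate 1 is the lowest tpst-1 value, for MCM2 at 5.05.

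The same genes were compared between tpst/psyr1,2,3 and tpst-1 shoots, which asks for the effect of receptor loss without TPST. Here 12 of 49 genes passed (24.5%, against 15% of all genes), 7 higher (5.18% of all genes) and 5 lower (9.78%). The 7 higher ones were MCM2 to MCM7 and CYCD2;1, a D-type cyclin that responds to sugar. MCM7 had 10.3, 14.6, 14.6 and 16.1 scaled TPM in tpst-1 shoots, below the tpst/psyr1,2,3 values given above (log2 fold change 0.49 ± 0.11, adjusted p = 0.00561). MCM6 had 4.69, 7.56, 6.16 and 8.02 in tpst-1 shoots (log2 fold change 0.54 ± 0.14, adjusted p = 0.00879), and MCM2 5.05, 9.30, 9.25 and 9.78 (log2 fold change 0.58 ± 0.15, adjusted p = 0.0115). In each case the first value, tpst-1 replicate 1, was the lowest, and the other 3 also lay below all tpst/psyr1,2,3 libraries. Without that library the log2 fold changes were 0.37, 0.42 and 0.40, and these 3 genes, MCM3 and MCM4 passed. MCM5 and CYCD2;1 then did not pass (adjusted p = 0.0619 and 0.05, edgeR). PCNA1 was at 19.5 to 25.4 scaled TPM in tpst/psyr1,2,3 and 16.8 to 23.9 in tpst-1 shoots and did not pass (log2 fold change 0.15 ± 0.14, adjusted p = 0.486). With only these 2 groups in the fit 0 genes passed, and 14 had an unadjusted p under 0.05.

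The 5 genes called lower in this comparison were not called by limma on log2(TPM + 1). CYCD3;1 had 26.4, 18.2, 23.4 and 21.1 scaled TPM in tpst/psyr1,2,3 shoots, against 25.1, 30.3, 30.3 and 30.2 in tpst-1 shoots, with overlap (log2 fold change -0.39 ± 0.11, adjusted p = 0.0203). CYCD3;3 (-0.37), KRP4 (-0.44), SMR1 (-0.62) and AUR2 (-0.61) were called lower too. In that test, which differs in both the model and the scaling, the median of all genes was 0.33, CYCD3;3 and AUR2 turned to 0.03 and 0.04, and 16 genes passed, all higher. AUR2 also lost its call with transcript lengths as offsets. Its mean transcript length as deposited was 1252 to 1386 bases in tpst/psyr1,2,3 shoots and 1260 to 1673 bases in tpst-1 shoots. The MCM calls held by limma, with log2 fold changes of 0.78 to 0.89, which carry the same shift of 0.33 toward higher values. Without tpst-1 shoot replicate 1, CYCD3;3, SMR1 and AUR2 lost their calls (adjusted p = 0.0771, 0.106 and 0.13, edgeR), and CYCD3;1 and KRP4 kept theirs.

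Among the 57 other cell cycle genes 8 were higher and 1 lower in tpst/psyr1,2,3 than in tpst-1 shoots, with a median log2 fold change of 0.14, against -0.01 over all genes. Over all genes 15% passed, 5.18% higher and 9.78% lower. The 8 included the cyclin CYCA3;2 and the retinoblastoma gene RBR1. ORC1B, a subunit of the origin recognition complex, averaged 5.02 scaled TPM in tpst/psyr1,2,3 and 2.37 in tpst-1 shoots (log2 fold change 1.08 ± 0.17, adjusted p = 0.000129). ORC1A, its close copy, averaged 1.07 and 0.423 (log2 fold change 1.32 ± 0.38, adjusted p = 0.0204), and CDC45, which joins the MCM helicase at origins, 4.84 and 3.12 (log2 fold change 0.64 ± 0.18, adjusted p = 0.0218). PATRONUS1, a protector of chromosome cohesion, was lower (log2 fold change -0.65 ± 0.18, adjusted p = 0.0147). Against wild type 2 of the 57 passed, where 7.04% of all genes did. They were RNR1, the large subunit of ribonucleotide reductase (log2 fold change 0.52 ± 0.13, adjusted p = 0.0156), and ORC1B (log2 fold change 0.65 ± 0.16, adjusted p = 0.0177).

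The other shoot groups gave smaller counts for replication genes, but the summed scaled levels of these genes also lay above wild type. The 8 replication genes summed to 117 to 138 scaled TPM in tpst/psyr1,2,3 and 104 to 120 in PSY5-treated tpst-1 shoots. The sums were 109 to 130 in psyr1,2,3, 103 to 108 in tpst-1 and 85.6 to 96.9 in wild-type shoots. Every mutant or treated library thus lay above every wild-type library in this scaled sum. On the deposited scale tpst-1 shoots overlapped wild type, at 64.1 to 105 TPM against 81.6 to 91.2. Gene by gene, tpst-1 shoot replicate 1 lay below every wild-type library for MCM2, MCM6 and MCM7, also after scaling. In psyr1,2,3 shoots 2 of 49 genes passed against wild type (4.08%, against 1.82% of all genes), MCM2 and MCM6, both higher (0.893% of all genes were higher and 0.927% lower). MCM2 had 12.04, 11.2, 13.7 and 11.47 scaled TPM in psyr1,2,3 (log2 fold change 0.60 ± 0.15, adjusted p = 0.0456) and MCM6 8.86, 7.92, 8.997 and 8.46 (log2 fold change 0.59 ± 0.14, adjusted p = 0.0286). Of the 8 replication genes 7 had an unadjusted p under 0.05 there. Of 49 genes 9 passed without tpst-1 shoot replicate 1, which enters this comparison through the shared estimate of spread. With 1 wild-type or psyr1,2,3 library left out the count was 0 or 1. In PSY5-treated tpst-1 shoots 1 of 49 passed against wild type (2.04%, against 5.1% of all genes, 3.54% higher and 1.56% lower), PCNA1 at 22.4, 22.6, 19.6 and 19.1 scaled TPM (log2 fold change 0.49 ± 0.14, adjusted p = 0.0382), and 6 passed without tpst-1 shoot replicate 1.

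PSY5 itself changed no gene of the set past the threshold in tpst-1 shoots. Of 49 genes 0 passed by edgeR, DESeq2 or limma (5.16% of all genes passed by edgeR, 1.32% higher and 3.84% lower), and 7 had an unadjusted p under 0.05. The inhibitor KRP7 had 3.85, 2.95, 5.03 and 5.49 scaled TPM in treated and 14.3, 5.69, 4.68 and 5.91 in untreated tpst-1 shoots, so that 1 library, tpst-1 replicate 1, lay far above the rest (log2 fold change -0.78 ± 0.27, adjusted p = 0.0936). Among replication genes MCM3 had the largest difference (log2 fold change 0.45 ± 0.15, adjusted p = 0.0853). Without tpst-1 shoot replicate 1, 2 genes passed, both lower. Between tpst/psyr1,2,3 and psyr1,2,3 shoots 0 of 49 passed by these tools (0.458% of all genes by edgeR, 0.169% higher and 0.29% lower), with 4 at an unadjusted p under 0.05. Of the wider list AT1G63100 alone passed with PSY5 (log2 fold change 0.43 ± 0.09, adjusted p = 0.0077).

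In tpst-1 shoots 2 of 49 genes passed against wild type (4.08%, against 9.21% of all genes), 1 higher (7.07% of all genes) and 1 lower (2.14%). SMR1 (AT3G10525), an inhibitor that promotes endoreduplication in leaves and sepals, had 58.2, 38.2, 39.1 and 35.1 scaled TPM in tpst-1 shoots, against 37.4, 21.1, 26.5 and 22.8 in wild-type shoots. The groups overlapped through wild-type replicate 1 (log2 fold change 0.67 ± 0.19, adjusted p = 0.0252). CDC20.2, the near-identical copy of CDC20.1, had 9.46, 10.6, 12.5 and 13.3, against 17.8, 16.6, 16.5 and 16.5 (log2 fold change -0.55 ± 0.17, adjusted p = 0.0379). Neither passed without tpst-1 shoot replicate 1, where the log2 fold changes were 0.48 and -0.47 (adjusted p = 0.082 and 0.0833), by limma (0.50 and -0.66), or with the 2 groups alone.

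CYCD3;2 and CDC20.1 were the 2 genes called lower in tpst/psyr1,2,3 than in wild-type shoots. CYCD3;2 had 52.8, 58.2, 61.2 and 47.6 scaled TPM, against 84.5, 70.1, 67.3 and 71.9 (log2 fold change -0.41 ± 0.12, adjusted p = 0.0412), and CDC20.1 27.5, 21.4, 30.00 and 24.3, against 34.9, 36.8, 33.7 and 35.6 (log2 fold change -0.46 ± 0.13, adjusted p = 0.0351). Neither group pair overlapped, but limma on log2(TPM + 1) called neither. That test takes TPM as deposited, without the scaling numbers. These were 0.879 to 0.922 in tpst/psyr1,2,3 and 1.01 to 1.06 in wild-type shoots, so model and scaling differ together. With 1 shoot library left out CYCD3;2 lost its call in 8 of 20 fits and CDC20.1 in 7.

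Markers of shoot tissues are given for the same libraries. The 9 shoot meristem and young leaf genes summed to 90.7 to 110 scaled TPM in tpst/psyr1,2,3, 83.5 to 91.0 in PSY5-treated tpst-1, 84.0 to 98.1 in psyr1,2,3, 90.9 to 110 in tpst-1 and 81.7 to 98.9 in wild-type shoots, and the stem cell gene WUS was at 0 in 4 of these 5 groups. The 7 stomatal lineage genes summed to 65.9 to 71.7, 69.2 to 73.4, 79.8 to 85.9, 67.3 to 75.4 and 73.6 to 85.3 in the same order. The 8 photosynthesis genes summed to 36737 to 41632, 37999 to 42835, 40957 to 45172, 45249 to 91501 and 51128 to 56438, again in that order. The 91501 is tpst-1 replicate 1, with its scaling number of 1.69. As deposited, these sums were 45815 to 54074 TPM in tpst-1 and 50272 to 53000 in wild-type shoots. In the order of groups above, the 9 clock genes summed to 154 to 174, 163 to 197, 190 to 206, 128 to 178 and 184 to 203 scaled TPM. Root epidermis and endodermis markers summed to at most 7.93 in any shoot library. Their part in the MCM differences was not tested.

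In PSY5-treated tpst-1 seedlings the inhibitors SMR1 and KRP2 were higher than at 0 h at several times. SMR1 had 25.9, 31.5 and 28.9 scaled TPM at 0 h, 65.5, 60.9 and 64.3 at 2 h, 53.8, 68.8 and 72.1 at 6 h, 86.2, 82.6 and 71.00 at 24 h and 57.7, 62.5 and 62.7 at 7 d. Every library at every later time lay above every 0 h library. Against 0 h the log2 fold changes were 1.15 ± 0.11, 1.18 ± 0.11, 1.48 ± 0.11 and 1.09 ± 0.11 (SE), with adjusted p of 1.56e-07, 1.03e-07, 3.36e-09 and 3.78e-07 by edgeR. KRP2 (AT3G50630), an inhibitor of CDKA complexes known for its link to auxin and lateral roots, had 7.09, 8.99 and 10.8 scaled TPM at 0 h, 14.8, 13.5 and 15.02 at 2 h, 16.8, 16.3 and 14.02 at 6 h, 16.4, 14.1 and 16.4 at 24 h and 11.6, 15.4 and 10.1 at 7 d. It passed at 2 h (log2 fold change 0.70 ± 0.17, adjusted p = 0.00674), 6 h (log2 fold change 0.83 ± 0.17, adjusted p = 0.00134) and 24 h (log2 fold change 0.81 ± 0.17, adjusted p = 0.00174). At 7 d its values overlapped those of 0 h (log2 fold change 0.46 ± 0.17, adjusted p = 0.0626).

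SMR1 and KRP2 were the only genes of the set to pass at 2 h, and SMR1 the only one at 7 d. At 2 h 2 of 49 genes passed (4.08%, against 12.5% of all genes), both higher (4.53% of all genes were higher and 8.01% lower). At 6 h 3 passed (6.12%, against 14.5%), all higher (5.89% higher and 8.56% lower over all genes), the third being CYCB2;3, a B-type cyclin at 9.81, 10.4 and 8.32 scaled TPM, against 6.14, 7.77 and 7.08 at 0 h (log2 fold change 0.45 ± 0.14, adjusted p = 0.0286). At 7 d 1 passed (2.04%, against 19.4%, 8.53% higher and 10.8% lower over all genes). In the separated tissues neither inhibitor passed in PSY5-treated against untreated tpst-1 roots or shoots. In shoots SMR1 had a log2 fold change of -0.50 ± 0.19 (adjusted p = 0.126) and in roots 0.04 ± 0.20 (adjusted p = 0.941). No test across the seedling and tissue libraries was made, since they were scaled and fitted apart.

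At 24 h 5 mitotic genes were lower. Of 49 genes 7 passed (14.3%, against 14.1% of all genes, a share near the background), 2 higher (5.43% of all genes) and 5 lower (8.63%). KNOLLE had 20.13, 18.3 and 19.1 scaled TPM at 24 h, against 21.6, 31.1 and 36.3 at 0 h, without overlap (log2 fold change -0.63 ± 0.14, adjusted p = 0.00287). CDKB2;2 (AT1G20930), a B-type CDK that peaks in mitosis, had 5.398, 5.04 and 5.32, against 7.10, 10.2 and 9.97 (log2 fold change -0.78 ± 0.17, adjusted p = 0.00319). CYCB1;2 had 10.8, 11.1 and 11.2, against 13.6, 13.8 and 14.8 (log2 fold change -0.34 ± 0.09, adjusted p = 0.0078). CYCB1;4 (-0.48) and CYCB2;4 (-0.51) were the others. The call of CYCB2;4 was lost by limma (log2 fold change -0.31, adjusted p = 0.224), with length offsets, with the 2 times alone and in 4 of 15 fits without 1 library, and that of CYCB1;4 in 2 of 15. Of these 3 B-type cyclins only CYCB1;2 holds MSA cores, and 5 of the 6 B-type cyclins with MSA cores were not called at 24 h. The 9 B-type cyclins had a median log2 fold change of -0.34 at 24 h, against 0.01 over all genes, and 0.19 at 7 d, where none passed (edgeR). The replication genes had medians of 0.01, 0.04, -0.00 and 0.03 at the 4 times, and none had an unadjusted p under 0.05.

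**Figure D4:**
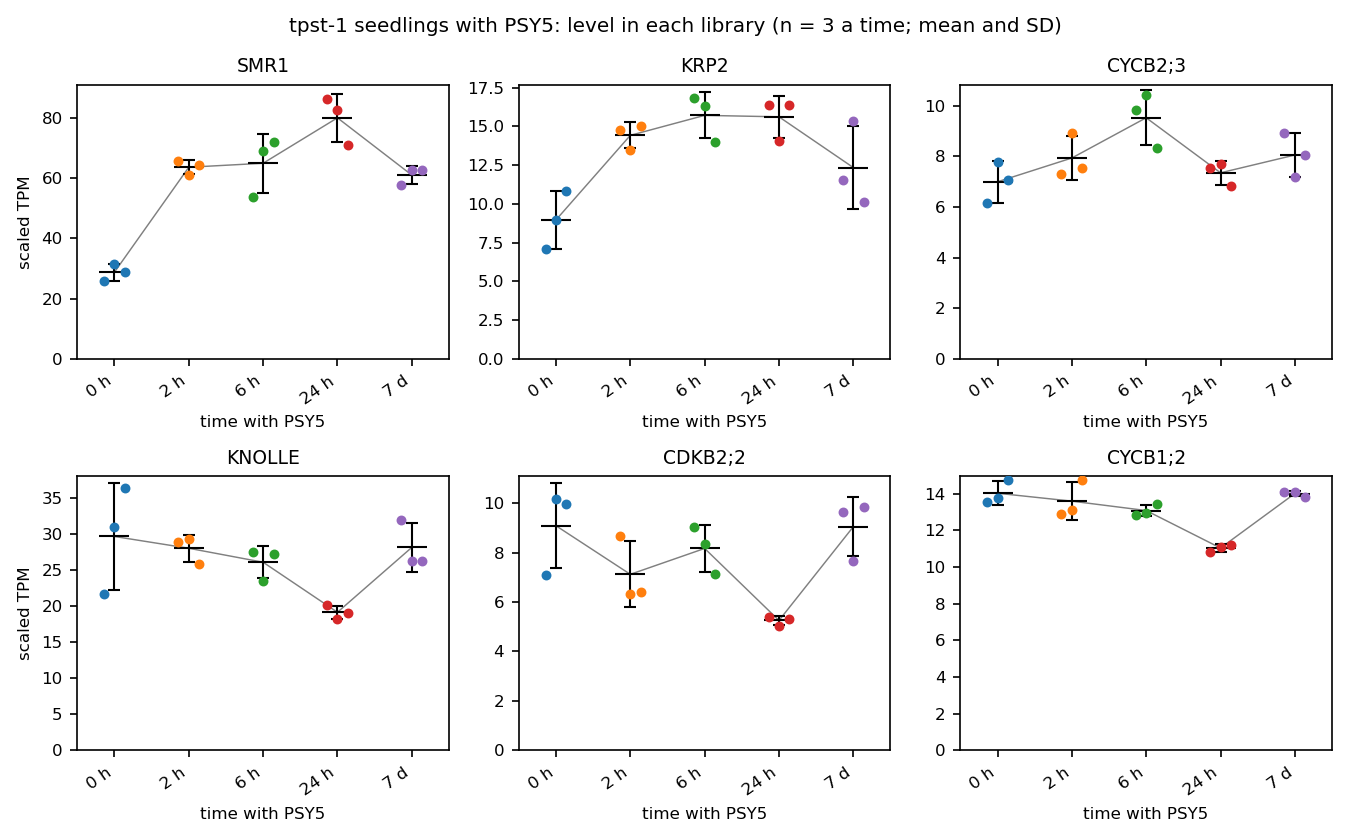
Scaled TPM (vertical axes) of 6 genes in tpst-1 seedlings from 0 h to 7 d of PSY5 (horizontal axes, not to scale), as 3 libraries a time with mean and SD, means joined by a line. SMR1 stays above its 0 h values at every later time, and KNOLLE, CDKB2;2 and CYCB1;2 are lowest at 24 h.

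Genes of the wider list showed few calls in seedlings. CDC6A, which loads the MCM helicase, was higher at 24 h (log2 fold change 0.64 ± 0.16, adjusted p = 0.00855), and AT1G63100 (log2 fold change -0.39 ± 0.11, adjusted p = 0.0183) and PLEIADE (log2 fold change -0.39 ± 0.13, adjusted p = 0.0432) were lower. Of 55 tested 1 was higher and 2 lower at 24 h, where 14.1% of all genes passed, 5.43% higher and 8.63% lower. CDKD;1, a CDK-activating kinase, was higher at 2 h (log2 fold change 0.80 ± 0.25, adjusted p = 0.0345), 6 h and 7 d. The 7 stomatal lineage genes summed to 30.1 to 32.8 scaled TPM at 0 h, 35.8 to 41.2 at 2 h, 40.4 to 42.7 at 6 h, 40.6 to 49.8 at 24 h and 31.3 to 39.3 at 7 d. The shoot meristem and young leaf genes summed to 46.5 to 49.6 at 0 h and 50.7 to 52.6 at 24 h. Clock genes summed to 154 to 184 and 168 to 185 at these times. The seedlings have no untreated samples at 2 h, 6 h and 24 h, so time after 0 h and PSY5 cannot be told apart there. By the labels the 0 h and 7 d seedlings shared an age of 7 days, so 7 d counts time with PSY5. Other differences between those groups were not tested.

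The effects in shoots and roots were tested against each other in 1 joint fit. For PSY5 in tpst-1 plants 4 of 49 genes differed (8.16%, against 3.4% of all genes), 2 with a more positive effect in shoots (1.24% of all genes) and 2 with a more negative one (2.16%). CYCD6;1 had a log2 fold change of 0.03 ± 0.20 in shoots and -1.61 ± 0.30 in roots (SE), a difference of 1.62 ± 0.38 (adjusted p = 0.0144). For CYCD3;1 the effects were -0.26 and -1.08 (difference 0.79 ± 0.17, adjusted p = 0.00812), for CYCD1;1 -0.21 and 0.95 (-1.18 ± 0.26, adjusted p = 0.00911), and for SIM -0.22 and 0.70 (-0.94 ± 0.21, adjusted p = 0.00812). CYCD6;1 was at 7.04 to 8.83 scaled TPM in treated and 6.11 to 9.01 in untreated tpst-1 shoots.

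For receptor loss the same test found 4 genes (8.16%, against 5.3% of all genes), 3 more positive in shoots (1.69% of all genes) and 1 more negative (3.61%). MCM3 had a log2 fold change of 0.59 ± 0.15 in shoots and -0.18 ± 0.11 in roots (difference 0.76 ± 0.22, adjusted p = 0.0357), and MCM7 0.49 ± 0.11 and -0.18 ± 0.11 (difference 0.65 ± 0.17, adjusted p = 0.0237). CYCD6;1 differed by 1.95 ± 0.41 and CYCD1;1 by -1.09 ± 0.26 (adjusted p = 0.00434 and 0.0123). The count was 1 with the 4 compared groups alone or without tpst-1 root replicate 2, and 2 without tpst/psyr1,2,3 root replicate 2. By limma on log2(TPM + 1) neither difference of CYCD1;1 passed, nor that of SIM for PSY5. Of the 57 other genes HINKEL and AT1G63100 had a more positive effect in shoots in both tests, with PLEIADE in the first (log2 fold change 0.72 ± 0.18, adjusted p = 0.0202) and ORC1B in the second (log2 fold change 1.16 ± 0.25, adjusted p = 0.00545). The labels name 2 library kits without assigning them to samples, so kit and tissue cannot be told apart here.

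**Figure D5:**
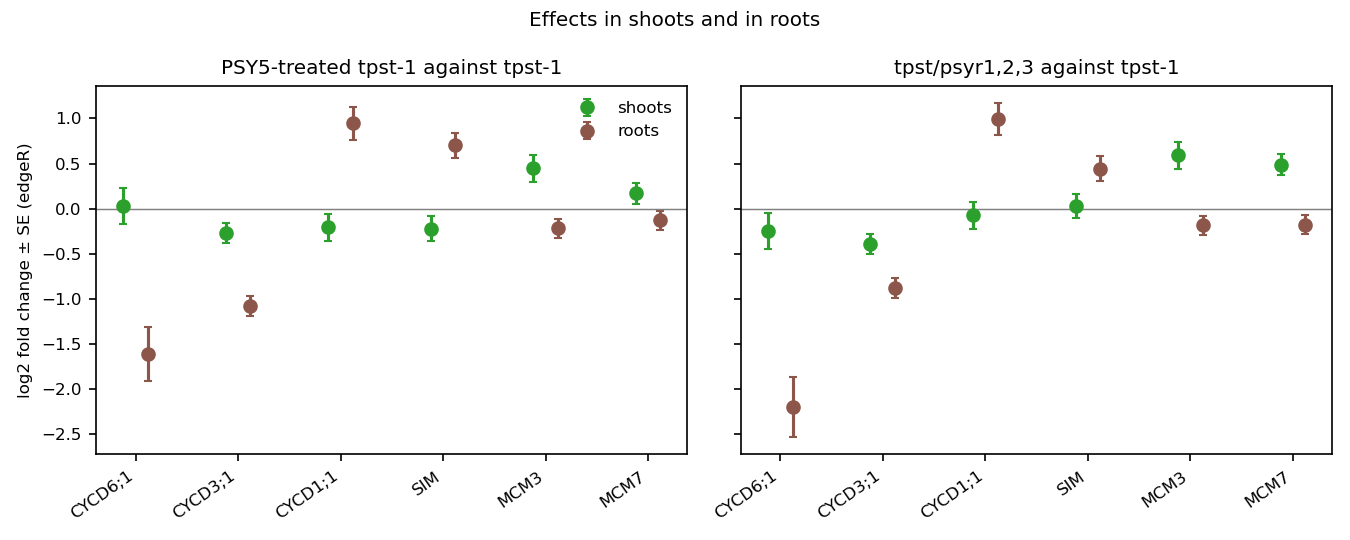
Log2 fold changes with their SE (vertical axes) of 6 genes in shoots and in roots, for PSY5-treated against untreated tpst-1 plants (left) and tpst/psyr1,2,3 against tpst-1 plants (right). D-type cyclins and SIM lie away from 0 in roots, and MCM3 and MCM7 lie above 0 in shoots and slightly below 0 in roots.

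Of the 49 tested genes 19 passed in none of the 14 comparisons within roots, shoots or seedlings. They were 2 A-type, 5 B-type and 2 D-type cyclins, 3 CDKs, the Aurora kinase gene AUR1, the clamp gene PCNA2 and 5 KRP inhibitors. CDKA;1 was one of them, at 47.8 to 57.3 scaled TPM in PSY5-treated and 51.7 to 59.5 in untreated tpst-1 roots. CYCB1;1, a mitotic cyclin that is also induced by DNA damage, was at 11.7 to 13.4 scaled TPM in PSY5-treated and 14.5 to 18.02 without PSY5 in tpst-1 roots, and it did not pass (log2 fold change -0.31 ± 0.14, adjusted p = 0.162).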

How the data were processed

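Total RNA was sequenced from 44 libraries of roots, shoots and seedlings. The deposited tables give, per the file headers, values already quantified by the authors as TPM (transcripts per 1e+06), expected counts of reads, and transcript lengths in bases. The expected counts per gene, as deposited by the authors, need not be whole, and TPM also divides by transcript length. The labels name TruSeq and NEBNext kits, and the submitters' processing notes name build TAIR10. The sources used here name no program for quantification and do not state strand.

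Expected counts were rounded and tested with edgeR 4.0.16 (R 4.3.3, quasi-likelihood test, trimmed-mean scaling), 1 fit for each of roots, shoots and seedlings with all their groups, and 1 joint fit of roots and shoots for differences between tissues. Genes with at least 1 TPM in 3 libraries (4 in shoots and the joint fit) were kept, leaving 19958, 20723, 21069 and 22771 genes. P-values were adjusted by the Benjamini-Hochberg method over all genes of a fit, and the threshold was 0.05. Scripts were tested on simulated data. Of 67 genes given a 1.5-fold change, 37.3% were recovered for roots, 20.9% for shoots and 56.7% for seedlings. False calls were 8.33%, 3.36% and 4.7% of all calls. Fewer genes were changed there than passed in the same comparisons of the data, so recovery in the data may differ.

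Alternatives were median-of-ratios factors, no filter, DESeq2 1.42.0, limma 3.58.1 on log2(TPM + 1), the compared groups alone, replicate number as a block, leaving out each library, and, chosen after seeing the data, transcript-length offsets. The genes of the set and all gene lists were chosen with earlier results of these data known. Called genes were named, with the uncalled gene of largest change in a class where described, and up to 4 called genes of the other cell cycle genes by adjusted p.

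Promoter windows were read from the RefSeq genome of assembly TAIR10.1. Of 21307 genes with a single transcript 99.3% had the same length in the deposited tables and in that annotation.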

Additional observations from a re-analysis of the deposited data

Results flagged for a closer look

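Values of single shoot libraries that stood apart from the other 3 of their group were found in 10 of 245 groups of 4 (Dixon's test, 95% level), and chance gives such a value in about 1 of 20 groups. Of these 10, 3 were in tpst-1 shoot replicate 1, the library whose scaling number was 1.69. There KRP7 was high at 14.3 scaled TPM, with the others at 4.68 to 5.91. CYCD3;1 was low at 25.1 (others 30.2 to 30.3), and MCM2 was low at 5.05 (others 9.25 to 9.78).

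The other 7 were spread over the groups. In tpst/psyr1,2,3 shoots replicate 4 was low for CYCB1;2 at 16.8 scaled TPM (others 19.8 to 20.4) and high for CDKB1;2 at 6.62 (5.72 to 5.798). In PSY5-treated tpst-1 shoots CYCB2;1 was low in replicate 3 at 1.80 (2.49 to 2.55). In psyr1,2,3 shoots CYCA1;1 was high in replicate 2 at 15.96 (13.9 to 14.2) and CYCD2;1 in replicate 3 at 13.5 (13.0 to 13.1). CYCD2;1 was also high in tpst-1 replicate 3 at 11.3 (9.70 to 9.82), and CDC20.2 in wild-type replicate 1 at 17.8 (16.5 to 16.6).

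The effects in shoots and roots differed past the threshold for 8 tested differences (edgeR, joint fit, shoots minus roots). For PSY5 these were CYCD1;1 at -1.18, CYCD3;1 at 0.79, CYCD6;1 at 1.62 and SIM at -0.94 on the log2 scale. For receptor loss they were CYCD1;1 at -1.09, CYCD6;1 at 1.95, MCM3 at 0.76 and MCM7 at 0.65.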

How the results depend on the processing

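Median-of-ratios factors kept all 98 calls of single genes, no filter 94, transcript-length offsets 93, the replicate block 91, DESeq2 88, limma 77 and the compared groups alone 71. The counts of genes called moved by more than 1.5 times as follows. DESeq2 called 7 in PSY5-treated and 3 in tpst/psyr1,2,3 roots (13 and 7 by edgeR), 5 in psyr1,2,3 and 4 in PSY5-treated tpst-1 shoots against wild type (2 and 1 by edgeR). limma called 0 in tpst-1 and 1 in psyr1,2,3 shoots against wild type, and 12 for the receptor-loss difference between tissues. With the compared groups alone the counts were 0 in tpst-1 (4 at an unadjusted p under 0.05), 6 in psyr1,2,3 and 8 in PSY5-treated tpst-1 shoots against wild type, 0 for tpst/psyr1,2,3 against tpst-1 shoots (14 at an unadjusted p under 0.05), 1 against psyr1,2,3, and 1 for the receptor-loss difference. Transcript-length offsets, chosen after seeing the data, gave 2 for PSY5-treated tpst-1 shoots against wild type. By limma the sign turned for AUR2 (0.045) and CYCD3;3 (0.032) in tpst/psyr1,2,3 against tpst-1 shoots and for KRP7 (0.0022) and CYCD5;1 (0.43) in tpst-1 roots against shoots. The cause was not tested.

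Same-numbered replicates did not deviate together (0 of 9 root, 0 of 30 seedling and 1 of 40 shoot pairs correlated over 0.1), and with the replicate block the counts were 0 in psyr1,2,3 and 0 in PSY5-treated tpst-1 shoots against wild type (11 and 9 at an unadjusted p under 0.05). In tpst/psyr1,2,3 against wild-type shoots the block also removed the calls of CYCD3;2, CDC20.1 and MCM5.

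Leaving out 1 library gave 9 to 13 calls for PSY5 in roots, 4 to 8 for tpst/psyr1,2,3 against tpst-1 roots and 0 to 0 between these root groups. In shoots it gave 7 to 12 for tpst/psyr1,2,3 against tpst-1, 0 to 1 against psyr1,2,3 and 5 to 10 against wild type, 0 to 2 for PSY5, 0 to 6 for PSY5-treated tpst-1, 0 to 9 for psyr1,2,3 and 0 to 5 for tpst-1, each against wild type. In seedlings it gave 1 to 3 at 2 h, 2 to 4 at 6 h, 6 to 7 at 24 h and 1 to 3 at 7 d. The ranges were 3 to 5 and 1 to 5 for the differences of PSY5 and receptor loss between tissues, and 28 to 33 for tpst-1 roots against shoots. Root libraries held the fewest reads.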
